A study of Mus musculus with 4 samples.

Results

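Messenger RNA of 10 genes of the integrated stress response was measured in the contused spinal cord of ApoE3 and ApoE4 mice. The genes were ATF4 and genes known as its targets, chosen by name with earlier results of these data known. They were the transcription factors ATF4, ATF5 and DDIT3, the pseudokinase TRIB3 and the enzymes ASNS, PSAT1, PHGDH and MTHFD2. The others were the glutathione-degrading enzyme CHAC1 and the stress protein SESN2. At 7 days post-injury (dpi) all 10 had a value among the 14123 genes used. At 21 dpi 8 of the 10 had a value among 11470 genes, and DDIT3 and PSAT1 had no row. Of 5565 genes with a mean of at least 50 FPKM at 7 dpi, 1597 (28.7%) had no row at 21 dpi, so a missing row also occurred for abundant transcripts. Every row had the test status Ok in the authors' comparison (14127 rows at 7 dpi and 11474 at 21 dpi). Shares of all genes below refer to genes with such a row. Gene symbols are given below in the usual mouse spelling.

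RNA came from the lesion segment of male mice of 2 human APOE targeted replacement lines, in which the human APOE3 or APOE4 allele stands in place of mouse Apoe. The mice were 3 to 5 months old and all had received an incomplete contusion injury of the thoracic cord with a force of 50 kdyne. The 4 groups were ApoE3 at 7 dpi, ApoE4 at 7 dpi, ApoE3 at 21 dpi and ApoE4 at 21 dpi. RNA of 3 mice stood behind each group, pooled into 1 value per gene. These pooled values hold no spread between mice, no test was run on them, and no difference below has a replicate check here. A gene was counted as different when its ratio on the FPKM + 1 scale was at least 1.3-fold (0.379 on the log2 scale). FPKM is a count of fragments scaled to transcript length and library size, which allows levels to be set side by side between genes. The + 1 makes ratios of the least abundant genes smaller than their true size. Uninjured cord was not analysed here. All libraries had been down-sampled to a common number of reads, and the number of reads behind a single value is not given with it. By the study's methods a replicate had a clearly lower rate of aligned reads than the others; its group is not given in the sources used here, and its part in the values below was not tested.

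The assignment of the 2 value columns to genotypes carried an ambiguity. The first column was read as ApoE3, as the name of the comparison has it and as the study reads it. By the numbering of the sample name columns the first value belongs to ApoE4, and under that reading every direction between genotypes below is the opposite. Comparisons of the times within a genotype would then belong to the other genotype.

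In the integrated stress response, kinases that sense misfolded protein in the endoplasmic reticulum (ER), amino acid shortage, double-stranded RNA or haem deficiency phosphorylate the translation factor eIF2. General translation falls while translation of Atf4 mRNA is favoured through upstream reading frames, so the mRNA level of Atf4 does not by itself give the level of its protein. ATF4 binds DNA as a dimer with C/EBP family and other bZIP proteins at C/EBP-ATF response elements, and drives genes for amino acid synthesis and uptake, tRNA charging and one-carbon metabolism. With prolonged stress it also drives Ddit3, which encodes the factor CHOP, together with Trib3 and Chac1. In injured cord the pathway is known to be engaged in neurons and oligodendrocytes. The unfolded protein response has a second side, run by ATF6 and by XBP1, which drives ER chaperones.

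All 10 members had a promoter entry in RefSeq (GRCm38.p6), with a pair of entries each for Atf5 and Psat1. The window ran from 250 bases before to 50 bases after the start of transcription. The core TGATGNAA of the C/EBP-ATF element, searched on both strands, was present in the windows of 3 of 10 members, Asns, Trib3 and Chac1. It was present in 14 of the 47 other pathway genes with an entry, among them 5 of 8 aminoacyl-tRNA synthetases (Aars, Gars, Iars, Tars and Yars), and in 3.97% of all 32851 promoter windows, or 4.51% of 27025 genes. The 250 bases before the start of Asns, the member with the highest ratio of 21 to 7 dpi, and of Ddit3, the member past the fold between genotypes at 7 dpi, are shown first, followed by 30 bases around the matches in Trib3 and Chac1. Each is written on the gene's own strand, which is the minus strand for Asns and Trib3 and the plus strand for Ddit3 and Chac1. Capitals mark the match to the core, or to its reverse complement in Trib3 and Chac1.
Asns, chr6:7693210-7693459: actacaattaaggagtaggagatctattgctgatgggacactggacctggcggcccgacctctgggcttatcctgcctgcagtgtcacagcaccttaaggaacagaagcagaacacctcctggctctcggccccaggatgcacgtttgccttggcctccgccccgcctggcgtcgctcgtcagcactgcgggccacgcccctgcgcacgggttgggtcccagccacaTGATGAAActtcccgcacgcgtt
Ddit3, chr10:127290543-127290792: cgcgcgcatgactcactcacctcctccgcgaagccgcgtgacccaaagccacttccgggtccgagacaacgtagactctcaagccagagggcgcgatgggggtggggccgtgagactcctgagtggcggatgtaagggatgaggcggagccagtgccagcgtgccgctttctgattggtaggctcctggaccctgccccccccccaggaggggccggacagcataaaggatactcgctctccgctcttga
Trib3, chr2:152344028-152344057: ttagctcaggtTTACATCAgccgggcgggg
Chac1, chr2:119351038-119351067: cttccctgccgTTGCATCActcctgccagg
The Asns match lay at -23 to -16 from the start, the Chac1 match at -193 to -186, and the Trib3 match at 15 to 22 within the transcribed part. The letters were absent from the Ddit3 window, which says nothing of elements farther away.

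Atf4 mRNA was among the more abundant transcripts in every group. Its level was 117 FPKM in ApoE3 and 116 FPKM in ApoE4 mice at 7 dpi, and 165 and 213 FPKM at 21 dpi, above 79.6% of the listed genes in ApoE3 mice at 7 dpi. Atf5, a related bZIP factor whose translation is controlled in the same way, was at 47.8 FPKM in ApoE3 and 52.4 FPKM in ApoE4 mice at 7 dpi, and at 61.9 and 74.8 FPKM at 21 dpi. Both factors were lowest at 7 dpi and highest in ApoE4 mice at 21 dpi. Ddit3, listed at 7 dpi only, was at 130 FPKM in ApoE3 and 93.0 FPKM in ApoE4 mice, the highest of the 3 factors in ApoE3 mice at that time. Trib3, a pseudokinase that binds AKT and ATF4, was the least abundant member in all 4 groups. Its level was 2.97 FPKM in ApoE3 and 3.21 FPKM in ApoE4 mice at 7 dpi, and 2.05 and 3.70 FPKM at 21 dpi.

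The enzymes ranged from near the middle of all genes to well above it. At 7 dpi in ApoE3 mice Psat1 lay above 86.5% of genes, Asns above 75.3%, Phgdh above 62.7% and Mthfd2 above 54.1%. Asns, which makes asparagine from aspartate, was at 92.9 FPKM in ApoE3 and 94.3 FPKM in ApoE4 mice at 7 dpi, and at 171 and 223 FPKM at 21 dpi, where it was the most abundant of the 8 listed members in both genotypes. Phgdh and Psat1 encode successive enzymes of serine synthesis. Phgdh was at 53.9 FPKM in ApoE3 and 53.0 FPKM in ApoE4 mice at 7 dpi, and at 74.4 and 109 FPKM at 21 dpi. Psat1, listed at 7 dpi only, was the most abundant member at that time, with 179 FPKM in ApoE3 and 176 FPKM in ApoE4 mice. Mthfd2, a mitochondrial enzyme of folate metabolism, was at 38.4 and 38.6 FPKM at 7 dpi, and at 48.0 and 58.3 FPKM at 21 dpi, for ApoE3 and ApoE4 mice in turn. The 4 enzymes thus had nearly equal levels in the 2 genotypes at 7 dpi.

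Chac1 and Sesn2 were expressed at a low level. Chac1, which cleaves glutathione, was at 5.77 FPKM in ApoE3 and 4.23 FPKM in ApoE4 mice at 7 dpi, and at 7.25 and 8.95 FPKM at 21 dpi. Sesn2, a leucine sensor that restrains mTORC1, was at 8.16 and 8.57 FPKM at 7 dpi, and at 7.58 and 10.3 FPKM at 21 dpi, for ApoE3 and ApoE4 mice in turn. At 7 dpi in ApoE3 mice the order from the top was Psat1, Ddit3, Atf4, Asns, Phgdh, Atf5, Mthfd2, Sesn2, Chac1 and Trib3. In ApoE4 mice Ddit3 stood between Asns and Phgdh, and the rest of the order was the same. Without a spread, neighbours in this order, such as Asns with 94.3 and Ddit3 with 93.0 FPKM in ApoE4 mice, could not be told apart.

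**Figure D1:**
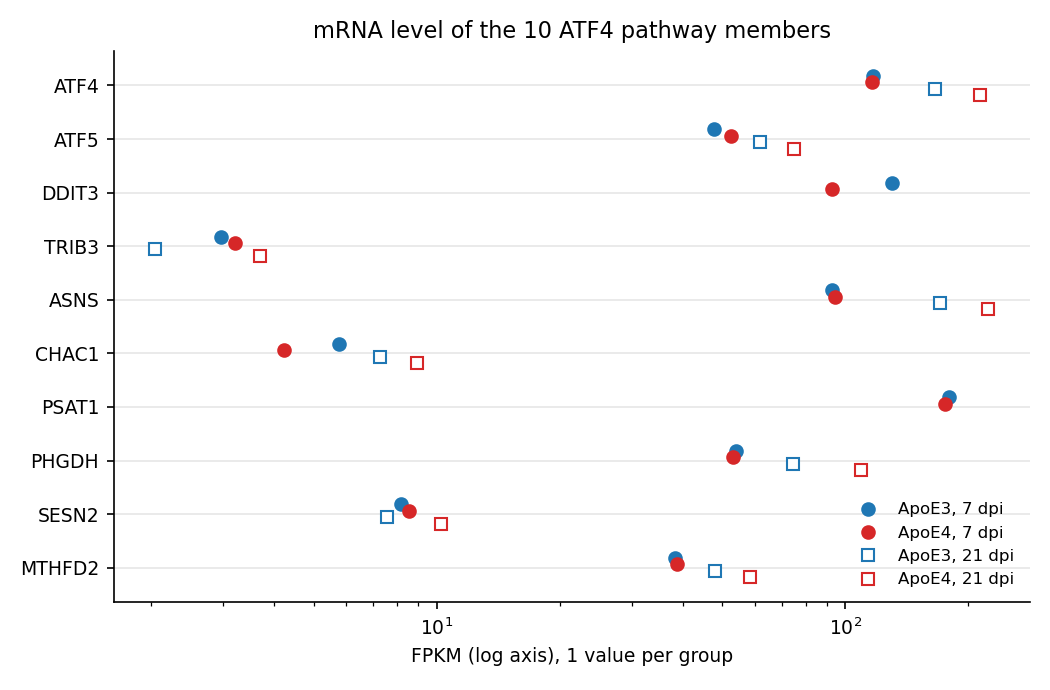
Level of each member in FPKM on a log axis, 1 value per group, with filled circles for 7 dpi, open squares for 21 dpi, blue for ApoE3 and red for ApoE4. The points run from 2.05 FPKM (Trib3, ApoE3, 21 dpi) to 223 FPKM (Asns, ApoE4, 21 dpi), and Ddit3 and Psat1 have no point at 21 dpi.

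At 7 dpi the members differed little between genotypes. Ddit3 was higher in ApoE3 mice, by 0.48 on the log2 scale, and was the only member past the fold. This made 1 of 10 higher in ApoE3 mice beside 3.78% of all genes, and 0 of 10 higher in ApoE4 mice beside 4.76%; in either direction 8.54% of genes were past the fold, so the members' share was near that of all genes. Chac1, with 0.37 in the direction of ApoE3 mice, lay just short of the fold, and passed it with a pseudocount of 0.1 (0.44). The other 8 members lay between -0.13 (Atf5) and 0.03 (Psat1). The medians of the members and of all genes were both within 0.01 of 0, and 5 members lay above 0 and 5 below. Atf4 itself had a ratio of 0.01 while Ddit3, a known target, had 0.48; the difference was not tested. All 8 neuronal markers also had positive ratios at this time, from 0.18 (Stmn2) to 0.40 (Snap25), with a median of 0.26, and 1 of the 8, Snap25, was past the fold toward ApoE3 mice, beside 3.78% of all genes. Their summed level was 5375 FPKM in ApoE3 and 4216 FPKM in ApoE4 mice, and Snap25 was the most abundant (3366 and 2545 FPKM). None of them was at 0, and their part in the Ddit3 value was not tested. In bulk tissue, fewer cells of a type and less RNA per cell cannot be told apart.

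At 21 dpi all 8 listed members had a higher value in ApoE4 mice, as did most of the transcriptome. The median log2 ratio of ApoE3 to ApoE4 over genes with a mean of at least 1 FPKM was -0.42, and 93.8% of all genes had a lower value in ApoE3 mice. The summed FPKM of all genes was 1513370 in ApoE3 and 2049970 in ApoE4 mice, while at 7 dpi the sums were 1668601 and 1668668. As given, 4 of 8 members were past the fold toward ApoE4 mice, Trib3 (-0.62), Phgdh (-0.55), Sesn2 (-0.39) and Asns (-0.39), beside 58.9% of all genes, and 0 of 8 toward ApoE3 mice, beside 2.01%. Atf4 (-0.36), Mthfd2 (-0.28), Chac1 (-0.27) and Atf5 (-0.27) lay inside the fold.

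Relative to the median of all genes, the members at 21 dpi lay close to 0. None of the 8 was past the fold in either direction, where 7.46% of genes were past it toward ApoE3 mice and 8.06% toward ApoE4 mice. The members then ranged from -0.20 (Trib3) to 0.15 (Atf5), with a median of 0.05. On this scale 6 of the 8 changed sign and stood toward ApoE3 mice, Atf4 with 0.06, Asns with 0.04, Sesn2 with 0.03 and Chac1, Atf5 and Mthfd2 with 0.15 each; Trib3 and Phgdh (-0.12) stayed toward ApoE4 mice. The members at this time thus lay where most of the transcriptome lay.

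**Figure D2:**
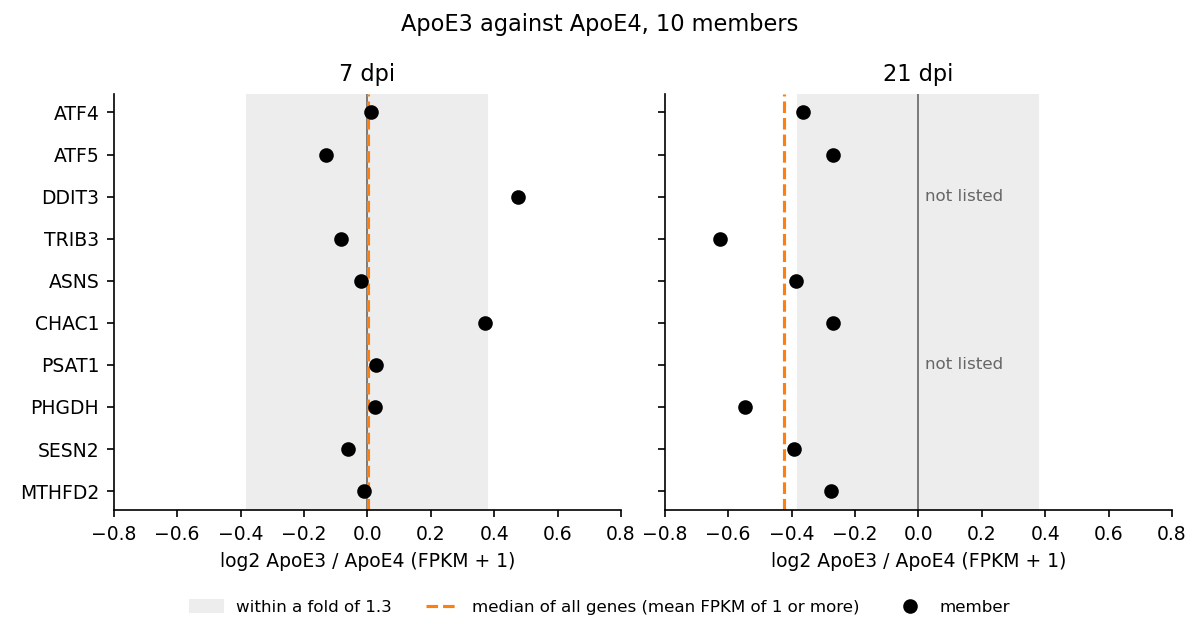
Log2 ratio of ApoE3 to ApoE4 (FPKM + 1) of each member at 7 dpi (left) and 21 dpi (right), with the range within 1.3-fold in grey and the median over genes of 1 FPKM or more as a dashed line. At 7 dpi Ddit3 (0.48) lies outside the grey range, and at 21 dpi the 8 members lie around the median of -0.42.

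Markers chosen for tissue outside the cord parenchyma also differed between the genotypes at 21 dpi. All 7 listed markers of skeletal muscle were past the fold toward ApoE4 mice, from -4.60 (Myl1) to -2.14 (Myh4), beside 58.9% of all genes as given, and all 7 also relative to the median, beside 8.06%, with a summed level of 33.0 FPKM in ApoE3 and 723 FPKM in ApoE4 mice; Tnnt3 was the most abundant (22.5 and 515 FPKM), and in ApoE3 mice Myh4 was listed at 0 and Tnnc2 near it (0.0562 FPKM). All 6 listed liver markers were likewise past the fold toward ApoE4 mice on both scales, from -3.24 (Apoa2) to -1.68 (Apoa1) as given, with a sum of 10.5 against 114 FPKM and Apoa2 as the most abundant (5.38 and 59.2 FPKM). In ApoE3 mice Alb (0.0931 FPKM), Ttr (0.173 FPKM) and Serpina1a (0.195 FPKM) were near 0. Schwann cell markers went the other way. The sum of 6 listed markers was 221 FPKM in ApoE3 and 84.4 FPKM in ApoE4 mice, and 5 of 6 were past the fold toward ApoE3 mice as given, beside 2.01% of all genes. Ncmap was the most abundant in ApoE3 mice (122 and 35.7 FPKM) and Egr2 in ApoE4 mice (73.0 and 46.1 FPKM), Cldn19 had the highest ratio (18.6 and 0.188 FPKM, 4.04) and Foxd3 the lowest (0.35). Of 7 sensory ganglion markers 6 were past the fold toward ApoE3 mice as given, beside 2.01% of all genes. Scn10a had the highest ratio (20.1 against 0.153 FPKM). Trpv1 and Mrgprd were listed at 0 in ApoE4 mice and Scn11a near it (0.0906 FPKM). Calca, the most abundant, was at 702 and 830 FPKM (-0.24, the lowest ratio) and carried most of the sums of 783 and 832 FPKM. These sums therefore say little of the 6 markers past the fold. As given, Calca had the sign of the neuronal markers at both times. Whether its mRNA came from ganglia or from cord was not tested. At 7 dpi no liver marker was listed; the sums in ApoE3 and ApoE4 mice were 62.5 and 40.3 FPKM over 5 muscle markers, 43.3 and 59.2 FPKM over 2 Schwann cell markers, and 483 and 364 FPKM over 2 sensory ganglion markers. The ratios then ran from -0.74 (Myl1) to 0.92 (Mylpf) for muscle, from -0.62 (Egr2, the most abundant) to 0.38 (Ncmap) for Schwann cells, and from 0.17 (Prph) to 0.48 (Calca) for sensory ganglia. These lists moved with genotype beside the members, and their part in the members' values at 21 dpi was not tested.

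The cord's own cell types were present in all 4 groups. Oligodendrocyte markers summed to 126772 FPKM in ApoE3 and 133946 FPKM in ApoE4 mice at 7 dpi over 5 listed genes, and to 211936 and 293980 FPKM at 21 dpi over 6, led by Mbp. Their ratios ran from -0.20 (Olig2) to 0.24 (Mog) at 7 dpi and from -0.55 (Mobp) to -0.23 (Sox10) at 21 dpi. Astrocyte markers, of which none was past the fold at 7 dpi (median 0.03, from -0.07 for S100b to 0.16 for Aqp4), showed a median at 21 dpi of -0.72, or -0.29 relative to all genes, from -0.90 (Gfap) to -0.40 (Slc1a3) as given. All 8 were past the fold toward ApoE4 mice as given, beside 58.9% of all genes, and 2 of 8 relative to all genes, beside 8.06%. Gfap, the most abundant, was at 12395 and 12386 FPKM at 7 dpi and at 8201 and 15313 FPKM at 21 dpi in ApoE3 and ApoE4 mice, and the 8 genes summed to 17750 and 17340 FPKM, then to 11534 and 20946 FPKM. Phgdh, which in the central nervous system is known mainly from astrocytes, had a ratio of the same sign (-0.12 relative to all genes), and the part of the astrocyte markers in it was not tested. The 6 neuronal markers listed at 21 dpi had a median of -0.40, or 0.03 relative to all genes, from -0.69 (Nefl) to -0.28 (Syt1) as given, with sums of 7375 and 10608 FPKM. Microglia and macrophage markers had -0.97, or -0.55 relative to all genes, with 6 of 6 listed markers past the fold toward ApoE4 mice as given, from -1.49 (Ms4a7) to -0.66 (Tmem119), beside 58.9% of all genes, and 4 of 6 relative to all genes, beside 8.06%. Fibroblast and pericyte markers had 0.24, or 0.66 relative to all genes, from -0.47 (Pdgfra, 42.0 and 58.8 FPKM, the most abundant by the mean of the genotypes and in ApoE4 mice) to 2.60 (Dcn, 61.9 and 9.37 FPKM, the most abundant in ApoE3 mice). As given 3 of 8 were past the fold toward ApoE3 mice, beside 2.01% of all genes, and 1, Pdgfra, toward ApoE4 mice, beside 58.9%. Which cells the Pdgfra mRNA came from was not tested. Relative to all genes 6 of 8 were past it toward ApoE3 mice, beside 7.46%, and 0 toward ApoE4 mice, beside 8.06%. Cx3cr1 and P2ry12, markers of resting microglia, had no row at either time.

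From 7 to 21 dpi most members had higher values in both genotypes. Whether the 2 times were normalized together is not given in the sources used here, and levels set across them carry that limit. Over genes listed at both times at a mean of 1 FPKM or more, the median was 0.09 in ApoE3 mice (10830 genes) and 0.53 in ApoE4 mice (10862 genes). In ApoE3 mice 3 of 8 members were past the fold toward 21 dpi as given, Asns (0.87), Atf4 (0.50) and Phgdh (0.46), beside 31.3% of all genes, and 1, Trib3 (-0.38), toward 7 dpi, beside 23.6%. In ApoE4 mice 6 of 8 were past the fold toward 21 dpi, Asns (1.24), Phgdh (1.03), Chac1 (0.93), Atf4 (0.87), Mthfd2 (0.58) and Atf5 (0.51), beside 59.0% of all genes, and 0 toward 7 dpi, beside 10.9%. The remaining members in ApoE4 mice were Sesn2 (0.23) and Trib3 (0.16).

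Relative to the medians, Asns was past the fold in both genotypes, with 0.78 in ApoE3 and 0.71 in ApoE4 mice. Atf4 had 0.41 and 0.35, past the fold in ApoE3 mice, and Phgdh had 0.37 and 0.50, past it in ApoE4 mice. Chac1, with 0.20 and 0.40, was past it in ApoE4 mice. In all, 2 of 8 members were past the fold toward 21 dpi in ApoE3 mice beside 26.6% of genes, and 3 of 8 in ApoE4 mice beside 26.1%. Trib3 had the lowest values of the 8, -0.47 in ApoE3 mice, where it was the 1 member past the fold toward 7 dpi beside 27.7% of genes, and -0.37 in ApoE4 mice, where 0 of 8 were, beside 28.6%. Sesn2 likewise lay below the medians, with -0.18 and -0.29. Atf5, Trib3 and Sesn2 changed sign on this scale in ApoE4 mice. Atf5 had 0.28 in ApoE3 and -0.02 in ApoE4 mice, and Mthfd2 0.23 and 0.05. With 8 members, the shares toward 21 dpi were near those of all genes. Of the 8, Atf4, Asns, Chac1, Phgdh and Mthfd2 lay above the medians in both genotypes, Trib3 and Sesn2 below them in both, and Atf5 above in ApoE3 and below in ApoE4 mice.

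**Figure D3:**
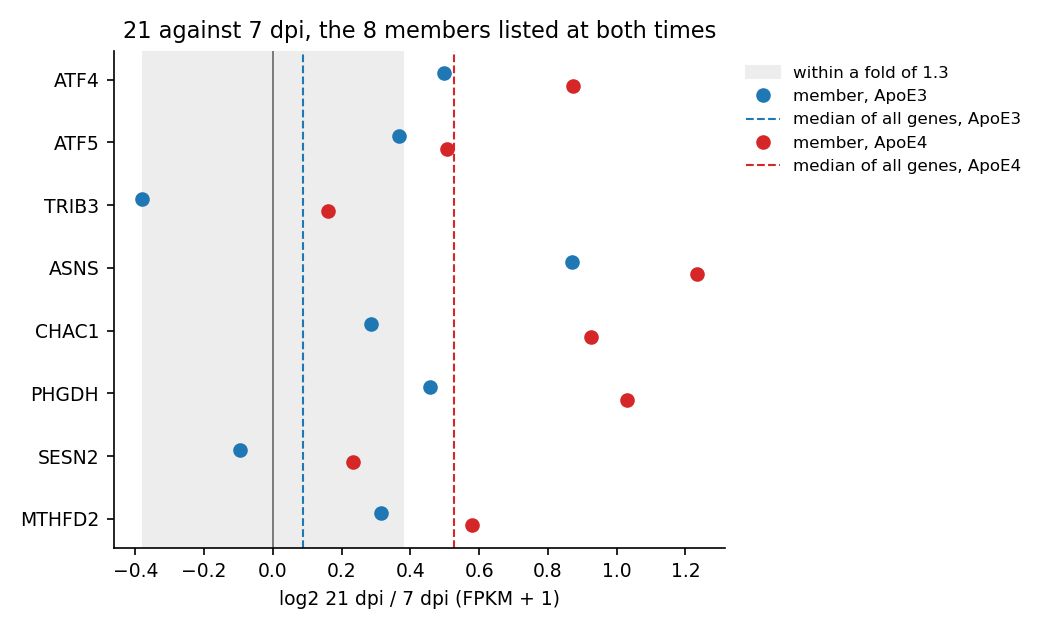
Log2 ratio of 21 to 7 dpi (FPKM + 1) of the 8 members listed at both times, in ApoE3 (blue) and ApoE4 (red) mice, with the median of all genes in each genotype as a dashed line and the range within 1.3-fold in grey. Asns has the highest value in both genotypes (0.87 and 1.24), and Trib3 the lowest (-0.38 and 0.16).

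Cell type markers also differed between the times, with medians as given unless stated otherwise. The 6 markers of microglia and macrophages listed at both times had lower values at 21 dpi in ApoE3 mice, with a median of -2.33, and 5 of 6 in ApoE4 mice, with a median of -1.34. Lyz2, the most abundant, was at 4522 and 6076 FPKM at 7 dpi and at 212 and 426 FPKM at 21 dpi in ApoE3 and ApoE4 mice, and the sums were 6670 and 8677 FPKM over 8 listed genes, then 518 and 991 FPKM over 6. Fibroblast and pericyte markers summed to 733 and 934 FPKM at 7 dpi, led by Col1a1 with 212 and 270 FPKM, and to 169 and 129 FPKM at 21 dpi, when Col1a1 was at 2.44 and 2.27 FPKM. The median ratios of 21 to 7 dpi of these 8 genes were -1.52 in ApoE3 and -2.77 in ApoE4 mice. The 6 neuronal markers listed at both times had higher values at 21 dpi, with a median of 0.72 in ApoE3 and 1.64 in ApoE4 mice. Skeletal muscle markers went opposite ways, with a median of -0.94 in ApoE3 mice, where 4 of 5 were past the fold toward 7 dpi, beside 23.6% of all genes, and of 3.53 in ApoE4 mice, where 5 of 5 were past it toward 21 dpi, beside 59.0%. Astrocyte markers had medians of -0.42 and 0.34 over 8 genes as given, but of -0.51 and -0.18 relative to all genes, where both genotypes had the same sign. Oligodendrocyte markers had 0.31 and 0.82 over 5 genes as given, or 0.22 and 0.30 relative to all genes. The 2 Schwann cell markers listed at both times had 2.29 and 0.97 as given, or 2.20 and 0.44 relative to all genes. In ApoE4 mice these 2 went opposite ways, Ncmap with 2.09 and Egr2 with -0.16 as given, or 1.57 and -0.68 relative to all genes. Calca, of the sensory ganglion list, had 0.89 in ApoE3 and 1.62 in ApoE4 mice as given, or 0.81 and 1.09 relative to all genes. The part of all these lists in the members' values between the times was not tested.

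The sensors and the translation factor upstream of ATF4 had shares past the fold near those of all genes. Of 14 genes for the eIF2 kinases, the subunits of eIF2 and eIF2B and the eIF2 phosphatase, none was past the fold at 7 dpi, beside 8.54% of all genes in either direction, with a median of 0.0022, a lowest value of -0.15 (Eif2b2) and a highest of 0.34 (Eif2ak2, the kinase PKR, 26.4 and 20.7 FPKM). Eif2b4 was the most abundant (85.9 and 83.1 FPKM). At 21 dpi 9 of them were listed. As given 5 were past the fold toward ApoE4 mice, Eif2ak3 (the ER kinase PERK, -0.63), Eif2s3x, Eif2b2, Eif2ak2 and Eif2s1, beside 58.9% of all genes. Relative to all genes 0 of 9 were, beside 8.06%, with a highest value of 0.13 for Eif2ak4, the amino acid sensor GCN2.

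The bZIP proteins that pair with ATF4 or act beside it all leaned toward ApoE4 mice at 7 dpi. All 7 had negative ratios, with a median of -0.29, and 2 were past the fold toward ApoE4 mice, beside 4.76% of all genes. Cebpb, a dimer partner of ATF4, was at 21.6 FPKM in ApoE3 and 37.4 FPKM in ApoE4 mice (-0.76). Cebpd was at 3.61 and 7.40 FPKM (-0.86). The value nearest to 0 was that of Cebpg (-0.09), and the most abundant was Jund (160 and 196 FPKM). At 21 dpi all 7 (Jund, Jun, Atf3, Cebpg, Cebpb, Nfe2l2 and Cebpd) were past the fold toward ApoE4 mice as given, from -0.68 (Jund) to -0.47 (Cebpd), beside 58.9% of all genes, and none was relative to all genes, beside 8.06%, where the 7 ranged from -0.25 to -0.04. Atf3, itself a target of ATF4, was lower at 21 than at 7 dpi, from 32.9 to 10.2 FPKM in ApoE3 and from 39.0 to 15.3 FPKM in ApoE4 mice. Jund went the other way, from 160 to 312 and from 196 to 499 FPKM. As given 1 of 7 was past the fold toward 21 dpi in each genotype, beside 31.3% and 59.0% of all genes. Toward 7 dpi 4 were in ApoE3 mice, beside 23.6%, and 2 in ApoE4 mice, beside 10.9%. Relative to the medians 4 and 6 were past it toward 7 dpi, beside 27.7% and 28.6%.

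The metabolic targets outside the members had medians near 0 at 7 dpi. None of 9 amino acid transporters (median 0.09), 10 listed aminoacyl-tRNA synthetases (median 0.03) and 8 enzymes of serine, one-carbon and proline metabolism (median -0.01) was past the fold, beside 8.54% of all genes in either direction. The transporters ran from -0.08 (Slc7a3) to 0.26 (the cystine transporter Slc7a11, 16.2 and 13.4 FPKM), with Slc3a2, the partner chain of several of them, as the most abundant (536 and 532 FPKM). The synthetases ran from -0.12 (Tars) to 0.10 (Sars, which was also the most abundant at this time, 187 and 174 FPKM). The enzymes ran from -0.24 (Cth) to 0.32 (Aldh18a1, the first enzyme of proline synthesis, 42.1 and 33.5 FPKM), and Psph, the last enzyme of serine synthesis, was the most abundant (89.9 and 98.3 FPKM).

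At 21 dpi the same lists lay around the median of all genes. As given, 2 of 6 transporters (Slc38a2 and Slc6a9), 8 of 9 synthetases (Mars, Eprs, Aars, Sars, Gars, Iars, Tars and Yars) and 3 of 6 enzymes (Aldh1l2, Gpt2 and Pycr1) were past the fold toward ApoE4 mice, beside 58.9% of all genes. Relative to the median, 1 enzyme was past it toward ApoE4 mice, beside 8.06% of all genes, and 1 transporter toward ApoE3 mice, beside 7.46%. The transporter was Slc1a5, which carries glutamine (19.1 and 15.3 FPKM, 0.31 as given and 0.73 relative). The enzyme was Aldh1l2, of mitochondrial folate metabolism, at 8.28 and 15.9 FPKM (-0.87 as given and -0.45 relative). Cars had the highest ratio of the synthetases (-0.21 as given) and Psph that of the enzymes (-0.14 as given).

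Between the times the metabolic targets had ratios of both signs. In ApoE3 mice 5 of 9 synthetases were past the fold toward 21 dpi, Gars (0.82), Yars (0.75), Cars (0.72), Sars (0.62) and Mars (0.38), beside 31.3% of all genes, and in ApoE4 mice 8 of 9, beside 59.0%. Relative to the medians 4 of 9 were in each genotype, beside 26.6% and 26.1% of all genes. Pycr1, which makes proline, was lower at 21 dpi, from 21.5 to 6.14 FPKM in ApoE3 and from 21.2 to 8.87 FPKM in ApoE4 mice. Aldh1l2 was lower too, from 24.9 to 8.28 and from 23.3 to 15.9 FPKM. Asns, by comparison, was higher at 21 dpi in both genotypes. Mthfd1l, listed with Pycr1, was past the fold toward 21 dpi as given (0.47 in ApoE3 and 0.86 in ApoE4 mice). As given 1 of 6 enzymes in ApoE3 and 2 in ApoE4 mice were past it toward 21 dpi, and 2 toward 7 dpi in each. Of 6 transporters 2 were past it toward 21 dpi in each genotype, and 2 and 1 toward 7 dpi. The shares of all genes were 31.3% and 59.0% toward 21 dpi, and 23.6% and 10.9% toward 7 dpi.

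A pair of the remaining stress targets differed between genotypes at 7 dpi. Of 7 listed genes 2 were past the fold toward ApoE4 mice, beside 4.76% of all genes. Gdf15, a secreted stress cytokine, was at 13.2 FPKM in ApoE3 and 27.6 FPKM in ApoE4 mice (-1.01). Nupr1, a small stress-induced chromatin protein, was at 29.8 and 43.5 FPKM (-0.53). Eif4ebp1 lay just inside the fold (-0.36), Herpud1 had the highest ratio (0.20), and the autophagy receptor Sqstm1 was the most abundant (512 and 491 FPKM). At 21 dpi Gdf15 and Herpud1 had no row, and 2 of 5 listed genes, Vldlr (-0.66) and Nupr1 (-0.58), were past the fold toward ApoE4 mice as given, beside 58.9% of all genes, and none relative to the median, beside 8.06%; Sqstm1 had the highest ratio (-0.26). Fgf21, Stc2 and Adm2 had no row at either time.

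Over these 6 lists, 55 of 60 genes were listed at 7 dpi, and 0 were past the fold toward ApoE3 mice, beside 3.78% of all genes, and 4 toward ApoE4 mice, beside 4.76%. Their median was 0.01, with 28 above 0 and 27 below. At 21 dpi 42 were listed. As given 27 were past the fold toward ApoE4 mice, beside 58.9% of all genes. Relative to the median 1 was past it toward ApoE3 mice, beside 7.46%, and 1 toward ApoE4 mice, beside 8.06%.

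ER chaperones and other genes driven by ATF6 and XBP1 gave a different picture at 7 dpi. Of 15 genes, 9 were past the fold toward ApoE4 mice, beside 4.76% of all genes, 14 had a negative ratio, and the median was -0.58. Hspa5, the chaperone BiP, was at 249 FPKM in ApoE3 and 410 FPKM in ApoE4 mice (-0.72). Creld2 had the lowest ratio, with 4.46 and 10.1 FPKM (-1.03). The others past the fold were Pdia6 (-0.83), Manf (-0.80), Sdf2l1 (-0.79), Pdia4 (-0.63), Hyou1 (-0.62), Hsp90b1 (-0.58) and Calr, the most abundant (300.1 and 436 FPKM, -0.54). Atf6 itself had the highest ratio (0.07), and Xbp1, whose activity depends on splicing that these values do not show, had -0.23. The members' median at the same time was within 0.01 of 0, and 0 of 10 were past the fold toward ApoE4 mice. The difference between the lists was not tested, and both lists were chosen with earlier results of these data known. Markers of microglia and macrophages had a median of -0.13 at 7 dpi and a highest ratio of 0.11 (Csf1r), with 2 of 8, Lyz2 (-0.43) and Ms4a7 (-0.42), past the fold toward ApoE4 mice. Those of fibroblasts and pericytes had -0.36 and a highest ratio of -0.16 (Pdgfra), with 3 of 8, Lum (-0.50), Col3a1 (-0.45) and Acta2 (-0.41), past it. No listed marker of these lists was at 0, and their part in the values of the chaperones and of Gdf15, Cebpb and Cebpd was not tested.

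A different element was present in part of the chaperone list. The ER stress response element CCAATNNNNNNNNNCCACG, searched on both strands, was present in 6 of the 12 chaperone list genes with an entry. It was present in 0 of 10 members and in 0.137% of 27025 genes, or 0.119% of all windows. The core TGATGNAA was present in 0 of the 12 chaperone list genes. Hyou1, Manf and Atf6 had no entry. The matches with 11 bases on each side are given for Hspa5 and Creld2, on the gene's own strand, which is the plus strand for both, with the element in capitals (in Creld2 as its reverse complement).
Hspa5, chr2:34772014-34772054: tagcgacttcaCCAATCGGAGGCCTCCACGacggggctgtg
Creld2, chr15:88819509-88819549: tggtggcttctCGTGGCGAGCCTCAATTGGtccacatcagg
The Hspa5 match lay at -65 to -47 from the start and the Creld2 match at -126 to -108.

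At 21 dpi most chaperones were past the fold toward ApoE4 mice as given, and none was relative to all genes. As given 13 of 15 were past the fold toward ApoE4 mice, Sdf2l1 (-0.76) with the lowest ratio, then Edem1, Hsp90b1, Hspa5, Pdia6, Dnajc3, Atf6, Calr, Pdia4, Dnajb9, Hyou1, Xbp1 and Manf, beside 58.9% of all genes. With the shift of all genes subtracted 0 of 15 were, beside 8.06%, while 11 of 15 still lay below 0 and the median of the list was -0.12. The difference between the times was not tested. Creld2 had the highest ratio (-0.07 as given, 0.36 relative). Between the times the medians of the chaperones and of the members had opposite signs on both scales. As given, 9 of 15 chaperones were past the fold toward 7 dpi in each genotype, beside 23.6% of all genes in ApoE3 and 10.9% in ApoE4 mice, with a list median of -0.52 in both, where the members had medians of 0.34 and 0.73. Relative to the medians of all genes, 10 of 15 chaperones in ApoE3 and 14 of 15 in ApoE4 mice were past the fold toward 7 dpi, beside 27.7% and 28.6% of all genes, with list medians of -0.61 and -1.05, where the members had medians of 0.25 and 0.20. The chaperone medians of the genotypes thus were nearly equal as given and differed relative to all genes. The medians of all genes subtracted were 0.09 in ApoE3 and 0.53 in ApoE4 mice. Which scale is nearer to the levels in the tissue was not tested. The difference between the lists was not tested. Microglia and macrophage markers likewise had medians below 0 between the times, -2.33 in ApoE3 and -1.34 in ApoE4 mice as given. Those of fibroblasts and pericytes had -1.52 and -2.77. The part of these lists in the chaperone values between the times was not tested.

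**Figure D4:**
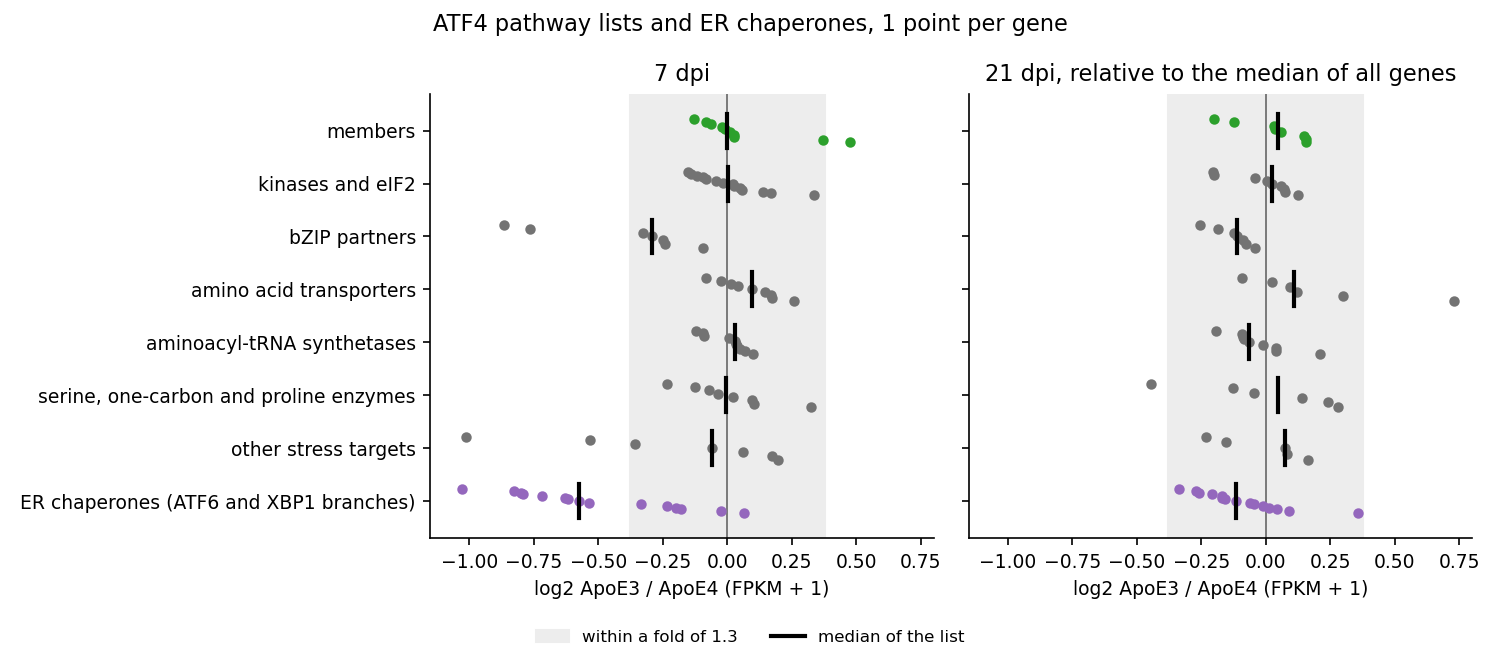
Log2 ratio of ApoE3 to ApoE4 (FPKM + 1), 1 point per gene, at 7 dpi (left) and at 21 dpi relative to the median of all genes (right), for the members (green), the 6 other pathway lists (grey) and the ER chaperones (purple), with the list median as a black bar. At 7 dpi the chaperone median is -0.58 and the members' median is near 0, and at 21 dpi both medians (-0.12 and 0.05) lie inside the grey range of 1.3-fold.

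Genes with the most similar pattern to the members were sought over the 4 groups. Profiles of log2(FPKM + 1) were centred per gene, and the Euclidean distance to the median profile of the 8 members listed at both times was taken for 10853 other genes. The nearest were Nudt16 (distance 0.025), Spats2 (0.0295), Actr1a (0.0345), Fhl1 (0.035) and Sppl3 (0.036). Nudt16 was at 26.0 and 25.3 FPKM at 7 dpi and at 33.3 and 41.5 FPKM at 21 dpi in ApoE3 and ApoE4 mice. Among the members, Mthfd2 lay nearest to the median profile (0.0798, with 95 other genes nearer), and Trib3 (0.67) and Asns (0.541) lay farthest, with 65.5% and 54.7% of the other genes nearer.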

How the data were processed

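Single-end RNA-seq libraries (TruSeq RNA v2, which does not keep strand) were down-sampled by the authors to a common size and processed with STAR 2.5.4b, Bowtie2, SAMtools 0.1.7 and Cuffdiff 1.3.0, per the submitters' processing notes; the genome build is not given in the sources used here. The authors deposited FPKM plus 1, with 1 value per gene, genotype and time for all mice of a group, beside fold changes, P values and Q values of their own comparison, which were not used. Here 1 was subtracted, symbols on more than 1 row of a time (2 at each) were left out, and log2 ratios were taken with a pseudocount of 1 and a fold of 1.3, as given and relative to the median of genes with a mean of at least 1 FPKM. No test was run, since the pooled values hold no replicates. Scripts ran in Python 3.11.15 with pandas 2.3.3 and were tested on simulated data. The members and gene lists were chosen with earlier results of these data known. Named genes were all members; from each other list the highest and lowest ratio at each time, the most abundant gene and genes past the fold; and the 5 nearest profiles. For marker lists: the most abundant, the extremes and any at or near 0. Eif4ebp1 and markers past the fold at 7 dpi were named after their values were seen. Alternatives were other pseudocounts, folds, a level filter, the centring and the other genotype reading. Markers of the Schwann cell and oligodendrocyte lists, 1 each, are not reported here.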

Additional observations from a re-analysis of the deposited data

Results flagged for a closer look

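For 3 members the ratio of ApoE3 to ApoE4 had opposite signs at the 2 times as given: Chac1 (0.37 at 7 dpi and -0.27 at 21 dpi, a difference of 0.64), Phgdh (0.02 and -0.55, a difference of 0.57) and Atf4 (0.01 and -0.36, a difference of 0.37). With 1 value per group the differences were not tested. Relative to the median of all genes Atf4 and Chac1 had the same sign at both times, and Phgdh kept opposite signs (0.02 and -0.12). On that scale Atf5 (-0.13 and 0.15), Asns (-0.02 and 0.04), Sesn2 (-0.06 and 0.03) and Mthfd2 (-0.01 and 0.15) also had opposite signs at the 2 times.

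For 2 members the ratio of 21 to 7 dpi had opposite signs in the genotypes as given, and these differences were not tested either. Trib3 had -0.38 in ApoE3 and 0.16 in ApoE4 mice, a difference of -0.54. Sesn2 had -0.10 and 0.23, a difference of -0.33. Relative to the medians both had negative values in both genotypes.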

How the results depend on the processing

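Values rest on 1 pooled value per group, so no replicate could be left out. No paired analysis was possible because each group had 1 value per gene. At 7 dpi 1 of 10 members was past the fold toward ApoE3 mice; the count was 2 with a pseudocount of 0.1 or 0.01 or a fold of 1.2, and 0 with a fold of 1.5 or 2. At 21 dpi the 4 toward ApoE4 mice became 8 with a fold of 1.2, 1 with 1.5, 0 with 2 and 0 relative to the median of all genes. The median ratio of all genes at that time was -0.42. From 7 to 21 dpi in ApoE3 mice the 3 higher members became 6, 1 and 0 with folds of 1.2, 1.5 and 2, and the 1 lower member became 0 with 1.5 or 2. In ApoE4 mice the 6 higher members became 2 with a fold of 2 and 3 relative to the median. The shares of all genes past folds of 1.2, 1.5 and 2 were not computed. The counts at these folds are therefore not a result about the members.

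The members' median at 21 dpi was -0.38 as given, 0.048 relative to the median of all genes and 0.38 with the first value column read as ApoE4. Relative to the median 6 of 8 members changed sign at 21 dpi, Asns (0.037) and Sesn2 (0.031), which had been past the fold, and Atf4 (0.059), Mthfd2, Chac1 and Atf5 (0.15 each), which had not. Between the times 3 changed sign in ApoE4 mice, Atf5 (-0.021), which had been past the fold, and Trib3 (-0.37) and Sesn2 (-0.29), which had not. With either smaller pseudocount 17 of 18 member ratios between genotypes and 16 of 16 between times kept their sign and their side of the fold; the exception was Chac1 at 7 dpi. A minimum mean of 1 FPKM removed no member. These changes follow from the settings themselves.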

Other observations

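Of 14123 genes used at 7 dpi, 10876 (77%) also had a row at 21 dpi and 3247 (23%) did not. At 21 dpi the log2 ratio of the summed FPKM of ApoE3 to ApoE4 mice was -0.44, near the median ratio of single genes (-0.42), while at 7 dpi the sums were 1668601 and 1668668 FPKM.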
